A study of Mus musculus with 2 samples.

Results

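The Mir30 family is a set of 7 miRNA genes that the mouse annotation names Mir30a, Mir30b, Mir30c-1, Mir30c-2, Mir30d, Mir30e and Mir30f. They were taken by symbol from GENCODE M21 and are 7 of the 2202 miRNA genes in the count files. Short RNAs were sequenced from gastrocnemius, the large calf muscle, of female B6CASTF1/J mice, an F1 hybrid strain, aged 18 to 20 months. The series holds 2 libraries of this 1 group, with no treatment or other genotype, numbered by the labels as biological replicates 1 and 2. A single donor entry is given for the pair, with separate tissue entries, and nothing says that they came from separate animals, so the spread between them may be technical. No condition was compared, and the design bears on how abundant each Mir30 gene was, how the partners at each locus related, and how closely the libraries matched.

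A miRNA is cut from a hairpin RNA, and either arm of the hairpin can give a mature strand of about the length of a short sequencing read. The mature strand, held by an Argonaute protein, pairs with target messenger RNAs mostly through its seed, bases 2 to 8, and represses them. The miR-30 miRNAs of the 5p arm share their seed, so they can recognise overlapping targets. In the heart they are known to repress Ctgf, a matrix growth factor gene, and the family is also known from studies of fat cell differentiation and muscle.

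The genes form 3 loci, each a pair on one strand. Mir30a (ENSMUSG00000065405.3, mm10 chromosome 1, 23272269 to 23272339, plus strand) lies outside any other annotated gene. Its partner Mir30c-2 (ENSMUSG00000065567.1, 23291701 to 23291784) lies 19361 bases downstream, with all of its 84 bases inside an exon of Gm27028, a long noncoding RNA. Mir30d (ENSMUSG00000065437.1, chromosome 15, 68341208 to 68341289, minus strand) lies within an exon of Gm20732, another long noncoding RNA, and shares 9 bases with an exon of Gm37296. Mir30b (ENSMUSG00000065476.2, 68337415 to 68337510) follows it after 3697 bases and shares 16 bases with an exon of the noncoding transcript Gm26621. Mir30e (ENSMUSG00000065409.1, chromosome 4, 120772606 to 120772697, minus strand) and Mir30c-1 (ENSMUSG00000065490.1, 120769534 to 120769622), 2983 bases apart, lie in introns of Nfyc. Nfyc encodes a subunit of the transcription factor NF-Y. Mir30f (ENSMUSG00000105585.1) covers the same 92 bases as Mir30e on the opposite strand, so it is annotated antisense to Nfyc.

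The mature sequences below show why reads of some members can be told apart and others cannot. They come from RefSeq (GRCm38.p6, the assembly behind mm10) and run 5′ to 3′, with the seed in capitals. The table gave mature sequences for 5 of the 7 genes. Mir30b and Mir30d are named without sequence.
miR-30a-5p: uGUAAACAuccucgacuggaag
miR-30e-5p: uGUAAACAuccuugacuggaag
miR-30c-5p, of both Mir30c-1 and Mir30c-2: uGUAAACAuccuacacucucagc
miR-30a-3p: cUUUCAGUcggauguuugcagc
miR-30e-3p: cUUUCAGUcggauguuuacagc
miR-30c-1-3p: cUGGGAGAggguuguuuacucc
miR-30c-2-3p: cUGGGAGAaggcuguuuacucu
miR-30f: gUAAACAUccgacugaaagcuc

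Among these, Mir30a, Mir30e, Mir30c-1 and Mir30c-2 shared the 5p seed GUAAACA. Their 3p strands split into a seed shared by Mir30a and Mir30e and another shared by Mir30c-1 and Mir30c-2. Counting positions from 1 at the 5′ end, miR-30a-5p and miR-30e-5p differed by 1 substitution, C13U, and the 3p strands by 1, G18A. The 3p strands of Mir30c-1 and Mir30c-2 differed by 3, namely G9A, U12C and C22U. The 5p strand of Mir30c-1 and Mir30c-2 is identical, and their hairpins share a run of 28 bases that is longer than the 23 bases of the mature strand:
Mir30c-1 and Mir30c-2 shared run: uguaaacauccuacacucucagcuguga
Mir30a and Mir30e hairpins shared at most 18 bases in a row, and either of them shared at most 12 with either Mir30c gene. Outside the family, no hairpin in the table shared more than 11 bases in a row with any of the 4 member hairpins given. The miR-30f strand matched the reverse complement of miR-30e-3p over 19 bases, and it starts 1 base later than the 5p strands, so its bases 2 to 8 are UAAACAU, a seed that no other gene in the table had.

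The deposited values are raw counts of reads per hairpin, so the 5p and 3p strands of a gene are added together. Reads that map to several places were tallied apart and were not assigned to genes. The libraries held 865419 gene counts on the sense strand in replicate 1 and 2177048 in replicate 2, and levels are given as CPM, that is counts scaled to a library total of 1000000. The multimapping tally held 5556809 and 8516459 reads and is not divided by gene. A read that lies within the shared run of 28 bases fits both Mir30c genes equally, so their counts are lower bounds. Counting intervals are exact 95% Clopper-Pearson intervals and cover counting error only, and SDs are over the 2 libraries.

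The tissue label was checked against marker miRNAs. Multimapping reads are left out of these sums, so a low count need not be a low level of the mature strand. The striated muscle list (Mir1a, Mir133, Mir206, Mir208 and Mir499 genes) had counts for 9 of 9 genes in both libraries and held 4.09% of gene counts in replicate 1 and 10.4% in replicate 2. Nearly all of that was Mir206, with 34953 of 35418 counts in replicate 1 and 224741 of 227483 in replicate 2, and 7 of the 9 genes had a higher CPM in replicate 2. Smooth muscle miRNAs (2 of 2 counted) went the other way, at 7.54% and 3.80%. The endothelial gene Mir126a held 4.73% and 5.30%, and the leukocyte list (4 of 4) 0.362% and 0.408%. Leukocyte members went apart, with Mir155 at 1432 and 2120 CPM, Mir223 at 278 and 123 CPM and Mir142 at 246 and 96.0 CPM. The fibroblast list (3 of 4 counted in both) held 0.0633% and 0.138%, the erythroid list (2 of 2) 0.0230% and 0.0316%, the epithelial list (5 of 7) 0.0342% and 0.0270%, and the liver gene Mir122 0.00104% and 0.00951%. Single genes set some of these sums. In the fibroblast list Mir214 was higher in replicate 2, at 564 and 1335 CPM, and the other 3 genes were lower. In the epithelial list Mir203 was lower in replicate 2, at 318 and 130 CPM, and the other 6 genes were higher. In the neural list 1 of 6 genes was counted in both libraries, and Mir9-2 and the 3 Mir124a genes were at 0. The striated muscle share, nearly all Mir206, and the smooth muscle share thus moved in opposite directions between the libraries that the Mir30 values compare. Fewer cells of a type and less RNA per cell cannot be told apart in bulk tissue, and the part of cell makeup in the Mir30 values was not tested.

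Mir30a was the most abundant family member in both libraries, followed by Mir30d and Mir30e, and these 3 genes held nearly all Mir30 counts. Mir30a had 31101 counts in replicate 1 and 44917 in replicate 2, or 35937 CPM (interval 35546 to 36332) and 20632 CPM (20444 to 20822), a mean of 28285 ± 10823. It ranked 11 and 13 among the 2202 genes. Mir30d had 9068 and 18408 counts, or 10478 CPM (10265 to 10695) and 8455 CPM (8334 to 8578), a mean of 9467 ± 1430. Mir30e had 6832 and 20070 counts, or 7894 CPM (7709 to 8083) and 9219 CPM (9092 to 9347), a mean of 8557 ± 937. Mir30d therefore stood above Mir30e in replicate 1 and below it in replicate 2.

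The other partner at each locus had far fewer counts. Mir30c-2 had 544 and 1736 counts, or 629 CPM (577 to 684) and 797 CPM (760 to 836). Mir30b had 477 and 1174 counts, or 551 CPM (503 to 603) and 539 CPM (509 to 571). Mir30c-1 had 72 and 253 counts, or 83.2 CPM (65.1 to 104.8) and 116 CPM (102 to 131), and was the lowest member with reads in both libraries. These 3 genes ranked 67, 78 and 147 by mean CPM, whereas the 3 leading genes were all among the 25 highest.

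Mir30f was at the limit of detection. It had 0 counts in replicate 1, for which a floor of 3 counts, or 3.47 CPM, was used. Its exact two-sided interval reaches 4.26 CPM. It had 1 count in replicate 2 (0.459 CPM, interval 0.0116 to 2.56). Mir30e, on the other strand of the same bases, exceeded it at least 2277-fold in replicate 1, taking 0 as 3 counts, and 20070 to 1 in replicate 2 (interval 3602 to 792762). Of the 32 pairs of miRNA genes that overlap on opposite strands, 23 had a strand with a mean of at least 10 counts. In 20 of those 23 the rarer strand held under 1% of the pair's counts in both libraries, so a partner strand with few or no reads was usual in these files. The unstranded counts gave Mir30e 0 reads in both libraries, since a read over 2 genes is ambiguous when strand is not used.

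**Figure D1:**
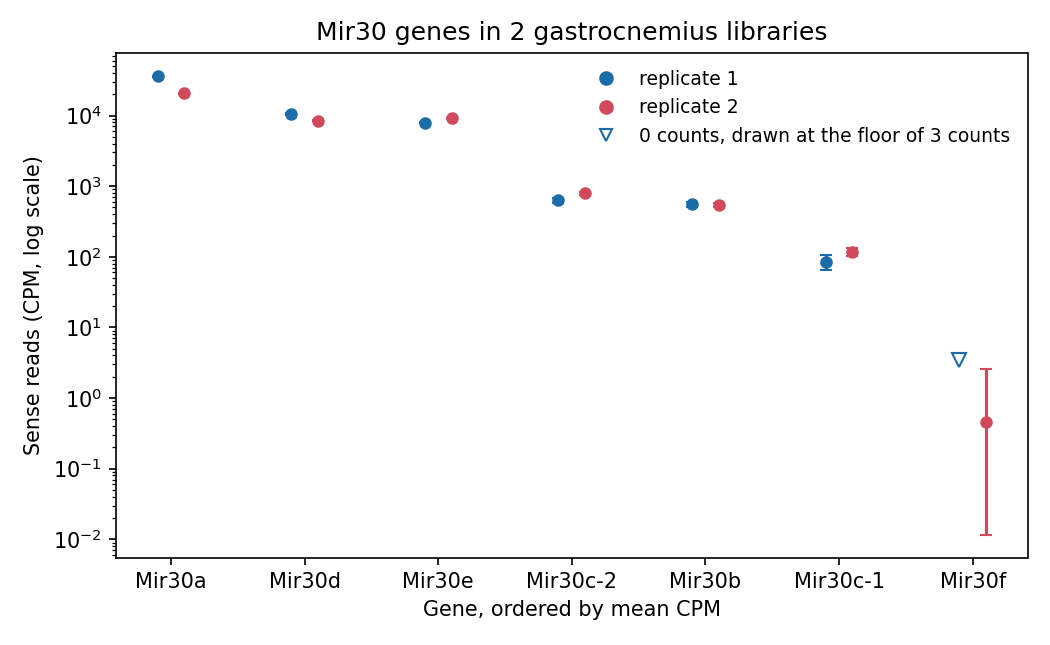
Level of each Mir30 gene in both libraries, in CPM on a log scale, with exact 95% counting intervals as bars (often smaller than the point). Mir30a, Mir30d and Mir30e lie between 7894 and 35937 CPM, Mir30c-2 and Mir30b between 539 and 797, Mir30c-1 near 100, and Mir30f at or under the floor of 3 counts.

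By counting error the order of counted levels was firm at most steps, with exceptions from Mir30d to Mir30e and from Mir30c-2 to Mir30b. The Mir30c counts are lower bounds, so steps to or from these genes hold only for reads placed at a single locus. Mir30a exceeded Mir30d by 3.43-fold in replicate 1 and 2.44-fold in replicate 2, and the counting intervals were apart in both. Mir30d and Mir30e changed places, with ratios of 1.33 (1.29 to 1.37) and 0.917 (0.899 to 0.936), so their order is not settled by these libraries. The largest step between tested members was from Mir30e to Mir30c-2, 12.6-fold and 11.6-fold. Mir30c-2 stood above Mir30b by 1.14-fold (1.01 to 1.29) and 1.48-fold (1.37 to 1.59), although their intervals in CPM overlapped in replicate 1. Mir30b exceeded Mir30c-1 by 6.63-fold and 4.64-fold. From the highest to the lowest tested member the span was 432-fold in replicate 1 and 178-fold in replicate 2.

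At all 3 loci the gene that lies first in the direction of transcription had the higher count in both libraries. At chromosome 1, Mir30a exceeded Mir30c-2 by 57.2 to 1 in replicate 1 (interval 52.5 to 62.3) and 25.9 to 1 in replicate 2 (24.7 to 27.2), a mean log2 ratio of 5.27 ± 0.81. At chromosome 15, Mir30d exceeded Mir30b by 19.0 to 1 (17.3 to 20.9) and 15.7 to 1 (14.8 to 16.6), a mean log2 ratio of 4.11 ± 0.20. At chromosome 4, Mir30e exceeded Mir30c-1 by 94.9 to 1 (75.2 to 121) and 79.3 to 1 (70.1 to 90.2), a mean log2 ratio of 6.44 ± 0.18. Multimapping reads are left out of both sides of these ratios. At chromosomes 1 and 4 the lower partner is a Mir30c gene, whose count is a lower bound because its 5p strand is found at both Mir30c genes. The mature strands of Mir30a and Mir30e were identical to those of no other gene in the table. By how much multimapping reads would move the ratios was not tested. The annotated hairpins differ little in length, from 71 to 96 bases, and per hairpin base the ratios were 67.6 and 30.6, 22.3 and 18.4, and 91.8 and 76.7. With 2 libraries an exact sign-flip test cannot give a two-sided p below 0.5, so no p was taken for these ratios.

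Unequal counts of neighbours were common among the miRNA genes of this muscle. Neighbour pairs were defined as adjacent miRNA genes on one strand with starts at most 50000 bases apart and at least 10 counts each on average, which gave 77 pairs. Their median absolute log2 ratio was 2.75, or 6.73-fold, with quartiles of 1.34 and 4.29. By absolute log2 ratio the Mir30 pairs lay at percentiles 81.8 (Mir30a and Mir30c-2), 72.7 (Mir30d and Mir30b) and 88.3 (Mir30e and Mir30c-1), and 21 of the 77 pairs (27.3%) were at least as unequal as Mir30d and Mir30b. The upstream gene was higher in both libraries in 40 of 77 pairs (51.9%), lower in both in 27, and on opposite sides in 7. The other 3 pairs were level in replicate 1, Mir300 and Mir381 at 13 counts each and the rest with a count of 0 taken as 3. The pair nearest in mean log2 ratio to Mir30a and Mir30c-2 was Mir23a and Mir27a at 5.36 ± 0.25. For Mir30d and Mir30b it was Mir191 and Mir425 at 4.29 ± 0.80, and for Mir30e and Mir30c-1 it was Mir322 and Mir503 at 6.37 ± 0.21. Of the 77 pairs, 26 lie on chromosome 12, some of them sharing a gene, and the percentiles were not taken without them. Multimapping reads are left out of all 77 pairs. Some pairs set a gene whose mature strand is identical to that of another gene beside one without such a copy, as with Mir29b-1 and Mir29a. The part of this in the background was not tested.

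**Figure D2:**
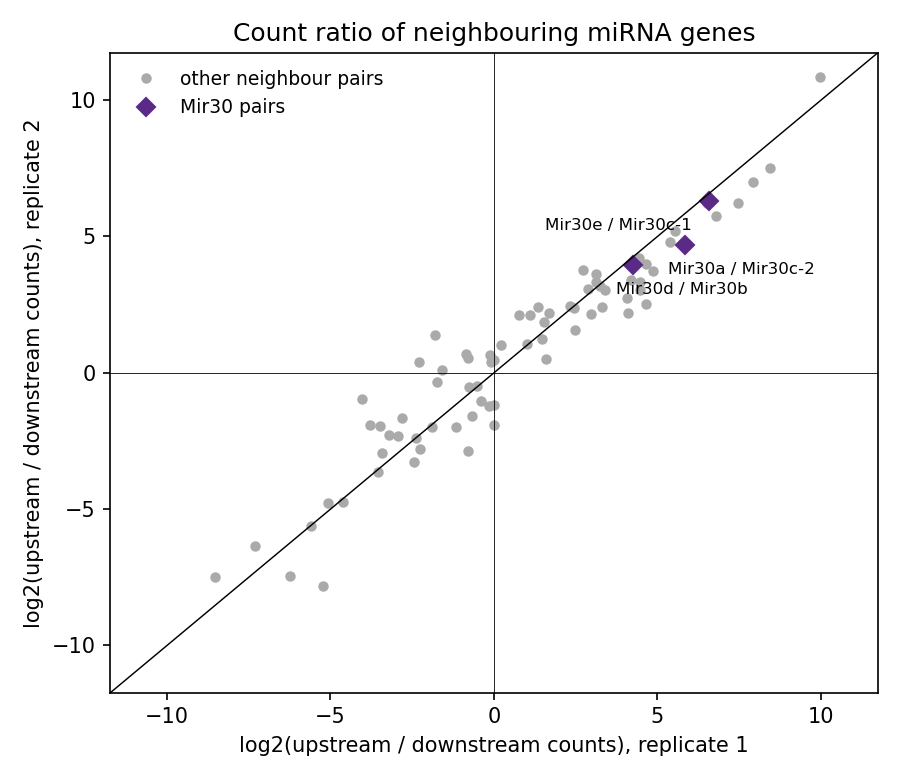
Log2 ratio of upstream to downstream counts for 77 neighbour pairs of miRNA genes, replicate 1 against replicate 2, with a diagonal line of equal ratios. The 3 Mir30 pairs lie in the upper right, at mean log2 ratios of 4.11 to 6.44, and each lies below the diagonal, most of all Mir30a and Mir30c-2.

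In all 3 pairs the leading gene's excess was smaller in replicate 2, but the change passed the call rule at 1 locus. A pair was called where its ratio changed at least 2-fold and Fisher's exact test, two-sided, gave a p under 0.05 after Benjamini-Hochberg adjustment over the 77 pairs. The ratio of Mir30a to Mir30c-2 was 2.21-fold lower in replicate 2 (interval 2.00 to 2.44, adjusted p = 1.39e-62, Fisher's exact test), and this pair was called. The Mir30c-2 counts leave out reads that fit both Mir30c genes. Of all reads, 80.7% were multimapping in replicate 1 and 71.0% in replicate 2. The part of this in the changed ratio was not tested. The ratio of Mir30d to Mir30b was 1.21-fold lower (1.09 to 1.35, adjusted p = 0.00147, Fisher's exact test), which is beyond counting error but below the ratio threshold. The ratio of Mir30e to Mir30c-1 was 1.20-fold lower, with an interval of 0.919 to 1.56 that includes no change (adjusted p = 0.290, Fisher's exact test). Against this 1 of 3, 24 of all 77 pairs were called (31.2%), and 40 of 77 (51.9%) without the ratio threshold, under which Mir30d and Mir30b also passed. The share of called Mir30 pairs was thus close to the background. The median absolute log2 change of all pairs was 0.89, and those of the Mir30 pairs were 1.14, 0.28 and 0.26, in the order given.

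The Mir30 genes that share the c-type mature strand held a small share of the family, and their ratio to each other differed little between the libraries. Mir30c-2 exceeded Mir30c-1 by 7.56 to 1 in replicate 1 (5.90 to 9.80) and 6.86 to 1 in replicate 2 (6.01 to 7.86). Together they held 1.28% of Mir30 counts in replicate 1 and 2.30% in replicate 2. Both values rest on reads that could be placed at a single locus, so they give neither the level of miR-30c-5p nor how the loci divide it. Mir30b, for which no sequence was given, was low as well. Of the 305 genes that averaged at least 10 counts, 275 (90.2%) matched the sequence table, and 38 of these had a mature strand identical to that of another gene in the table. The median level of those 38 was 105 CPM against 76.5 CPM for the other 237, and their highest level was 7582 CPM against 71810. Of the 38, 5 stood above Mir30c-2 and 18 below Mir30c-1.

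The family held a larger share of gene counts in replicate 1, and nearly all of the difference lay in Mir30a. The 7 genes held 5.56% (interval 5.51 to 5.61) and 3.98% (3.95 to 4.00), a mean of 4.77% ± 1.12. Without Mir30a, the other members held 1.96% (1.93 to 1.99) and 1.91% (1.89 to 1.93). Within the family, Mir30a held 64.7% and 51.9%, Mir30d 18.9% and 21.3%, and Mir30e 14.2% and 23.2%. By locus, chromosome 1 held 65.8% and 53.9% of Mir30 counts, chromosome 15 held 19.8% and 22.6%, and chromosome 4 held 14.4% and 23.5%. The loci on chromosomes 4 and 15 thus changed order, while chromosome 1 led in both libraries.

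**Figure D3:**
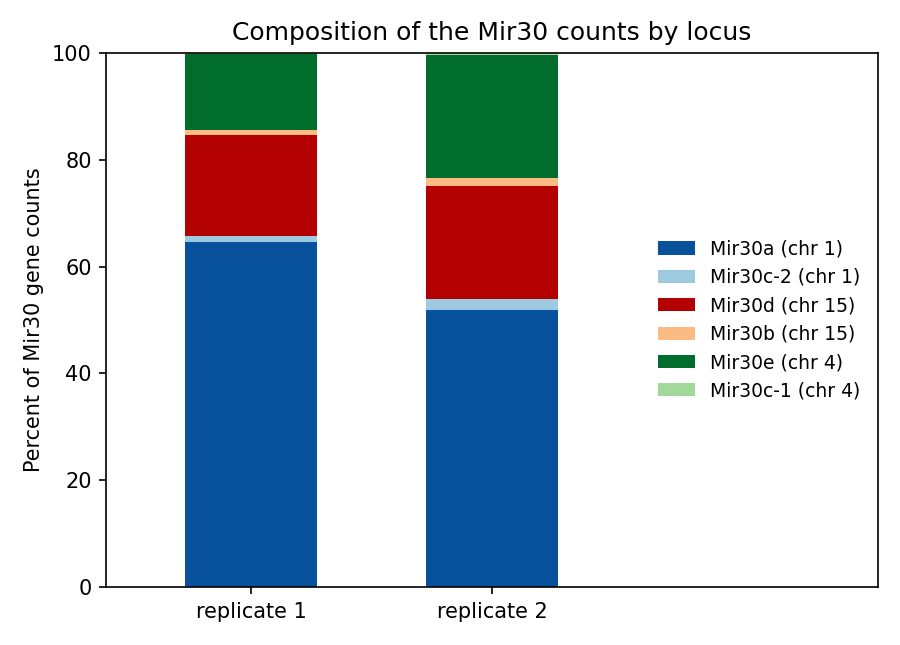
Percent of Mir30 counts from each gene in the 2 libraries, stacked by locus, with dark shades for the leading gene and light shades for its partner (Mir30f, with 0 and 1 counts, is not drawn). Mir30a takes 64.7% in replicate 1 and 51.9% in replicate 2, and Mir30e takes 14.2% and 23.2%.

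Relative to library totals, the tested members differed between the libraries by less than 2-fold, and in both directions. For each of 305 genes the split of its counts was set against that of the library totals with an exact binomial test, two-sided, with Benjamini-Hochberg adjustment over the 305. A gene was called where the ratio was at least 2 with an adjusted p under 0.05. The test compares these libraries against counting error and no condition. Of the 7 members, 6 were tested and 0 were called, against 103 of 305 genes (33.8%). By the same exact test 5 of the 6 had an unadjusted p under 0.05, against 209 of 305 genes. With no ratio threshold 5 of 6 passed the adjusted threshold (Mir30b did not), against 207 of 305 genes (67.9%), so passing it says little here.

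Mir30a was 1.74-fold higher in replicate 1 (interval 1.72 to 1.77), and its adjusted p in the exact test was too small to be held as a number and is listed as 0. Mir30d was 1.24-fold higher in replicate 1 (1.21 to 1.27, adjusted p = 3.02e-60, exact test). Mir30b had a ratio of replicate 2 to replicate 1 of 0.978 (0.879 to 1.09, adjusted p = 0.732, exact test). Toward replicate 2, Mir30e was 1.17-fold higher (1.14 to 1.20), Mir30c-2 was 1.27-fold higher (1.15 to 1.40) and Mir30c-1 was 1.40-fold higher (1.07 to 1.84), with adjusted p of 2.55e-28, 2.01e-06 and 0.0184 by the exact test. The part of left-out multimapping reads in the Mir30c ratios was not tested. On the log2 scale the member ratios ran from -0.80 for Mir30a to 0.48 for Mir30c-1, with a median of 0.10. The median of all 305 tested genes was 0.43 with an SD of 1.25, and 206 of them (67.5%) lay above 0. Of the 6 tested members, 5 lay below that median.

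Other scalings lower every ratio, by 0.28 with TMM (edgeR's trimmed mean factors) and by 0.42 with DESeq2 size factors, both on the log2 scale. Mir30a then passed the ratio threshold, at a log2 ratio of -1.08 (TMM) and -1.22 (DESeq2), and was the single member called under either. By the exact test Mir30b then passed the adjusted threshold without a ratio threshold (adjusted p = 0.000178 with TMM and 6.54e-08 with DESeq2). Mir30c-2 (0.485 and 0.385) and Mir30c-1 (0.413 and 0.848) no longer passed it by the same exact test. In either direction, 98 of 305 genes were called under TMM and 97 of 305 under DESeq2 scaling. Genes called higher in replicate 1 were 32 of 305 (10.5%) under TMM and 39 of 305 (12.8%) under DESeq2 scaling. Of all called genes, 79.6% were higher in replicate 2 with library totals, 67.3% under TMM and 59.8% under DESeq2 scaling. The direction of Mir30e turned under both scalings, to -0.06 and -0.19, and that of Mir30c-2 under DESeq2 size factors, to -0.07. The partner ratios use no library total and are the same under any scaling.

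**Figure D4:**
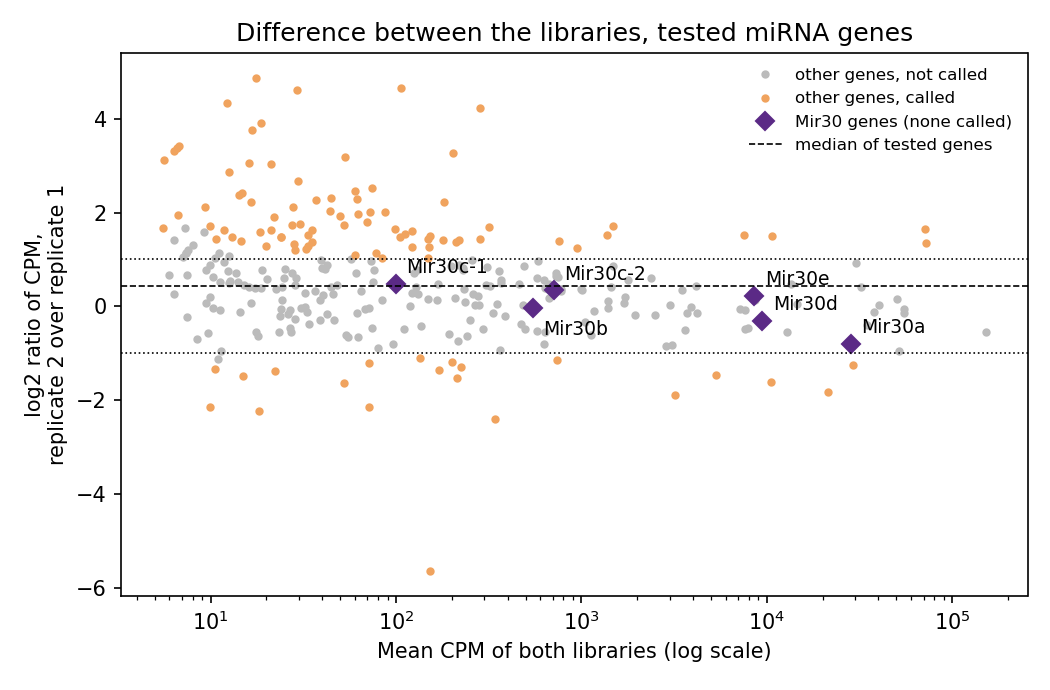
Log2 ratio of CPM, replicate 2 over replicate 1, against mean CPM (log scale) for 305 tested miRNA genes, with dotted lines at the 2-fold threshold and a dashed line at the median of 0.43. The 6 tested Mir30 genes lie between -0.80 and 0.48, inside the dotted lines, and the leading gene Mir30a is the lowest.

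The genes nearest in level to the leading members were found by the sum over both libraries of the absolute difference in log2(CPM + 1). For Mir30a these were Mir26b at 40813 and 17195 CPM (distance 0.45), Mir99a at 39241 and 29826 CPM (0.66) and Mir23b at 39754 and 36368 CPM (0.96). For Mir30d they were Mir191 at 10059 and 8357 CPM (0.08), Mir744 (0.45) and Mir196b (0.54). Mir744, at 8172 and 9009 CPM, was also nearest to Mir30e (0.08), followed by Mirlet7f-2 (0.34) and Mir27b (0.49). With 2 libraries this likeness describes levels and no shared pattern across conditions.

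The seeds of the family were found in few other genes. The 5p seed GUAAACA was also carried by Mir384, which lies on chromosome X and had 2 and 13 counts, or 2.31 and 5.97 CPM:
miR-384-5p: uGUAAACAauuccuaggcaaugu
The seed of the Mir30c 3p strands, UGGGAGA, was also carried by Mir6958, with 0 and 10 counts. The 3p seed of Mir30a and Mir30e was found in no other gene of the table.

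Set beside other families spread over several loci, the Mir30 family was intermediate in its counted total and led by a single gene. Mir30a held 58.3% ± 9.03 of Mir30 counts. Mir29a held 83.2% ± 5.74 of the Mir29 counts, and Mir181b-2 held 66.5% ± 14.8 of the Mir181 counts. In the let-7 family the top gene, Mirlet7i in replicate 1 and Mirlet7g in replicate 2, held 29.4% ± 3.84. As shares of all gene counts, let-7 held 18.9% ± 1.51, Mir29 1.74% ± 0.069 and Mir181 0.157% ± 0.0096. These are descriptions, and no difference between families was tested. Multimapping reads are left out, and genes with a mature strand identical to that of another gene can lose reads this way. By the sequence table, which is incomplete, such genes were at least 2 of 7 in Mir30 (2 more had no sequence), 5 of 12 in let-7 and 2 of 4 in Mir29. In Mir181 they were 4 of 6, Mir181b-2 among them. The totals and top shares therefore cover only reads placed at a single locus.

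**Figure D5:**
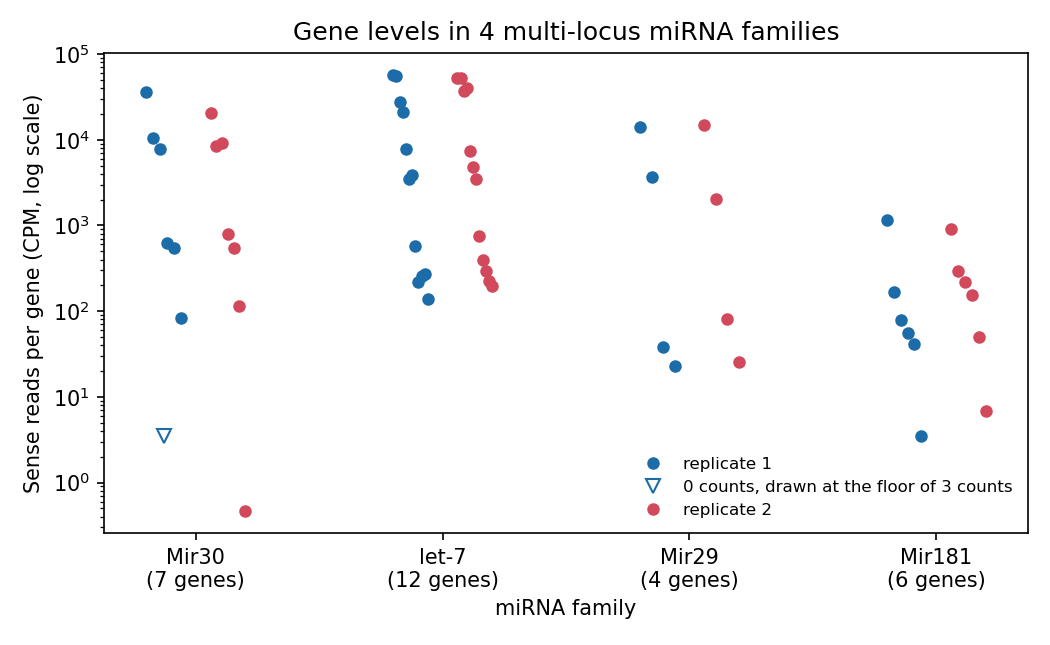
Level of each gene in the Mir30, let-7, Mir29 and Mir181 families, in CPM on a log scale, with 1 point per gene and library, and an open triangle at the floor of 3 counts for Mir30f in replicate 1. Mir30 genes span from 35937 CPM (Mir30a, replicate 1) to the single Mir30f count in replicate 2, with a gap between the 3 leading genes and the rest.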

How the data were processed

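The authors' deposited files give raw counts of reads per miRNA gene, unstranded, sense and antisense by their values since the columns have no header, after 4 tallies (unmapped, multimapping, no feature, ambiguous). Per the deposited README, they refer to mm10 and GENCODE M21. No aligner, counter or trimming tool is given in the sources used here. Of the 6888732 reads in replicate 1, 12.6% were sense gene counts and 80.7% multimapping, 5.10% unmapped and 1.67% without a feature. Of the 12001270 in replicate 2, the shares were 18.1%, 71.0%, 8.17% and 2.73%.

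The sense column was used. Tallies stayed out of totals and tests. All 2202 identifiers matched the annotation. Genes averaging at least 10 counts were all tested by the exact conditional binomial test, and neighbour pairs by Fisher's exact test. The pair interval is a normal approximation on the log odds ratio. With 1 group there is no contrast for edgeR or DESeq2, which gave scaling factors only. A count of 0 entered ratios as 3. Both tests were checked on simulated counts with planted changes and counting error only, so the check does not cover other spread between libraries. Members and lists were chosen with earlier results of these data known. Named genes are the 7 members, the 3 genes nearest in level to each of Mir30a, Mir30d and Mir30e, the nearest neighbour pairs, the marker lists, and Mir384 and Mir6958, which share a seed and were named with their values seen, as were the top genes of let-7, Mir29 and Mir181. Alternatives were TMM (edgeR 4.0.16), DESeq2 1.42.0 size factors, the other count columns, filters, thresholds, the pair distance and each library left out. Calculations used R 4.3.3, Python 3.11.15, NumPy 2.4.6, SciPy 1.17.1 and pandas 2.3.3.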

Additional observations from a re-analysis of the deposited data

Results flagged for a closer look

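The antisense column, which enters no comparison above, held 6832 reads in replicate 1 and 20070 in replicate 2 for Mir30f, far above the 3 counts that a 0 allows. These are the sense counts of Mir30e, which covers the same 92 bases on the other strand. The other 6 members had 0 or 1 antisense counts.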

How the results depend on the processing

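Under TMM or DESeq2 scaling the number of Mir30 genes called between the libraries was 1 (Mir30a) in place of 0, and with no ratio threshold it was 5. Mir30e turned to a log2 ratio of -0.0588 (TMM) and -0.19 (DESeq2) and Mir30c-2 to -0.0745 (DESeq2), since these scalings lower all ratios alike. Of the 305 tested genes, 98 were called under TMM and 97 under DESeq2 scaling, against 103. Where the mean had to reach 100 counts 50 of 170 genes were called, and with no ratio threshold 207 of 305. Of the neighbour pairs, 15 of 35 (42.9%) were called where both means had to reach 100 counts. With no ratio threshold 40 of 77 (51.9%) were called, against 24 of 77 (31.2%). With no ratio threshold 2 Mir30 pairs were called, Mir30d and Mir30b (log2 change -0.28) being the added pair. Called in every pair alternative was Mir30a and Mir30c-2, at a log2 change of -1.14 in each. No alternative altered the counts of these genes, which are the same in the unstranded column, so this value could not move. None of the alternatives brought in multimapping reads. In the unstranded column Mir30e was at 0 and its log2 ratio to Mir30c-1 became -5.49, with 0 taken as 3 counts, since reads over both strands' genes are ambiguous there. Per hairpin base, an alternative chosen after seeing the data, Mir30d to Mir30b moved to a log2 ratio of 4.34. Leaving out chromosome 12, also chosen after seeing the data, left 51 pairs with 19 called (37.3%). Of the mean CPM values, 5 moved by more than their SD in the unstranded column and 4 without the top gene in the totals. Leaving out a library only returns the values of the other, so it tests no stability. The family share was 5.56% in replicate 1 and 3.98% in replicate 2. The span from highest to lowest tested member was 432-fold and 178-fold. The comparison between libraries has no value with either left out. Depth limits Mir30f and, by its 72 counts in replicate 1, Mir30c-1. The Mir30c-1 count is also a lower bound at any depth, since reads that fit both Mir30c genes are left out.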
